A study of Mus musculus with 6 samples.

Results

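The genes described here are the core switches of cell division: 34 mouse genes that encode 9 cyclins, 4 cyclin-dependent kinases (CDKs), 7 proteins named as CDK inhibitors, 3 pocket proteins of the Rb family, 8 E2F transcription factors and 3 Cdc25 phosphatases. They were taken from a list of names and found by symbol among the 53801 genes of the count files, where all 34 were present. The cells, called ciCPCs and labelled as cardiac progenitors, are cardiovascular progenitors induced from mouse fibroblasts by chemicals. All 6 samples carried the wild-type genotype in a mixture of the C57BL/6 and 129J/SvE strains, and their passages are numbered from colony picking at day 14 of cardiac reprogramming. Both groups grew in basal medium with BMP4, Activin A, CHIR99021, an inhibitor of glycogen synthase kinase 3, and SU5402, an inhibitor of FGF receptors. One group of 3 samples was collected at passage 3 and the other group of 3 at passage 20, and the comparison asks how these regulators differ between early and late expansion. The labels do not say whether the replicates are independent cultures, or whether early and late cells descend from shared colonies. The p-values thus reflect just the scatter among these libraries, possibly technical, and effects of passage and of culture or preparation cannot be told apart.

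Cyclins switch on CDKs, and each pair acts in its own part of the cycle. D cyclins with CDK4 or CDK6, and then E cyclins with CDK2, phosphorylate the pocket proteins Rb1, Rbl1 and Rbl2, which releases E2F factors to drive genes of DNA synthesis; A and B cyclins with CDK2 and CDK1 carry cells through S phase and mitosis. The INK4 inhibitors (Cdkn2a to Cdkn2d) block CDK4 and CDK6, the CIP/KIP inhibitors (Cdkn1a and Cdkn1b) act on cyclin-CDK pairs more broadly, and Cdc25 phosphatases remove the phosphates that hold CDKs inactive.

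Libraries held 11387738 to 17721788 counts in genes. Levels are CPM, a gene's count relative to the size of its library, scaled with TMM factors, which correct library totals for a few genes that take a large share of counts, and they are given as mean ± SD with n = 3. Passage 20 replicate 3 stood apart from the 2 other passage 20 libraries, with a chi-square per degree of freedom of 8.72 and 10.6 against them and of 1.75 to 2.63 in the other 4 pairs of libraries of 1 passage. All 10 progenitor markers passed the low-count filter, with Nkx2-5, Gata4, Mef2c, Hand2 and Mesp1 higher and Isl1, Tbx5, Pdgfra, Kdr and Tbx20 lower at passage 20. Their summed level was 866 to 892 CPM and 715 to 804 CPM, and Isl1 went from 63.2 ± 5.72 to 7.45 ± 0.534 CPM. The summed level of 8 fibroblast markers was 13560 to 14279 CPM at passage 3 and 28052 to 33348 CPM at passage 20. Most of it came from the collagen genes Col1a1, Col1a2 and Col3a1, with means of 12540, 6097.7 and 9377.5 CPM at passage 20. Of the 8, 6 were higher (75%, against 37.0% of all genes) and 2 lower (25%, against 37.3%). The 2 were Thy1, from 13.1 ± 0.19 to 5.64 ± 1.68 CPM, and Pdgfrb, from 172 ± 8.12 to 107 ± 11.7 CPM. The part of these markers in the results below was not tested. Cardiomyocyte markers summed to 8.88 to 11.6 CPM over all 6 libraries, endothelial markers to 9.35 to 13.3 CPM and immune markers to 3.98 to 6.24 CPM, and the immune genes Ptprc, Itgam and Cd3e had 0 counts. At these low levels, of 4 cardiomyocyte markers tested 2 were higher (50%) and 1 lower (25%). Of 3 endothelial markers tested 1 was higher and 1 lower (33.3% each). Exons of Ccna1, Ccna2, Ccnd1, Ccnd2, Ccnd3, Ccne2, Cdk2, Cdk4, Cdk6, Rb1, Rbl2, E2f5, E2f7, E2f8, Cdc25b and Cdc25c, and of Msh6, Cdca8, Cdkn1c, Tbx3, Cbx7, Ezh2 and Foxo1 named further on, overlap a gene on the opposite strand, and their counts are uncertain to that extent. The same holds for the progenitor markers Pdgfra and Hand2, which shares 19.6% of its exon bases with Hand2os1. In bulk RNA, fewer cells in a phase of the cycle and less RNA per cell cannot be told apart.

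Of the 34 genes, 33 passed the low-count filter and were tested, and 26 of them (78.8%) differed between the passages by edgeR's quasi-likelihood test at an adjusted p under 0.05. Among all 15143 genes tested the same rule called 74.3%, so the share among these regulators was near the background. At passage 20, 16 members were higher (48.5%, against 37.0% of all genes) and 10 were lower (30.3%, against 37.3% of all genes). Changes of at least 2-fold were called in 7 members (21.2%, against 27.6% of all genes): Cdkn1a, Cdkn1b and Cdkn2d rose, and Ccnd1, Ccne1, E2f2 and E2f3 fell. The median log2 fold change of the members was 0.14, beside -0.01 over all genes. Without TMM factors, with libraries scaled by their totals only, the median of all genes moved to -0.34, and 3528 genes were called higher and 8273 lower in place of 5604 and 5641. The members called then were 6 higher and 17 lower, and small rises below are relative to the TMM scaling. In all 14 settings tried, 15 members kept their call: Ccnd3, Cdk1, Cdkn1a, Cdkn1b, Cdkn2d and E2f1 were higher, and Ccnd1, Ccne1, Cdkn2c, Rbl1, E2f2, E2f3, E2f4, E2f6 and E2f7 were lower. The share of all genes that kept their call was not counted.

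**Figure D1:**
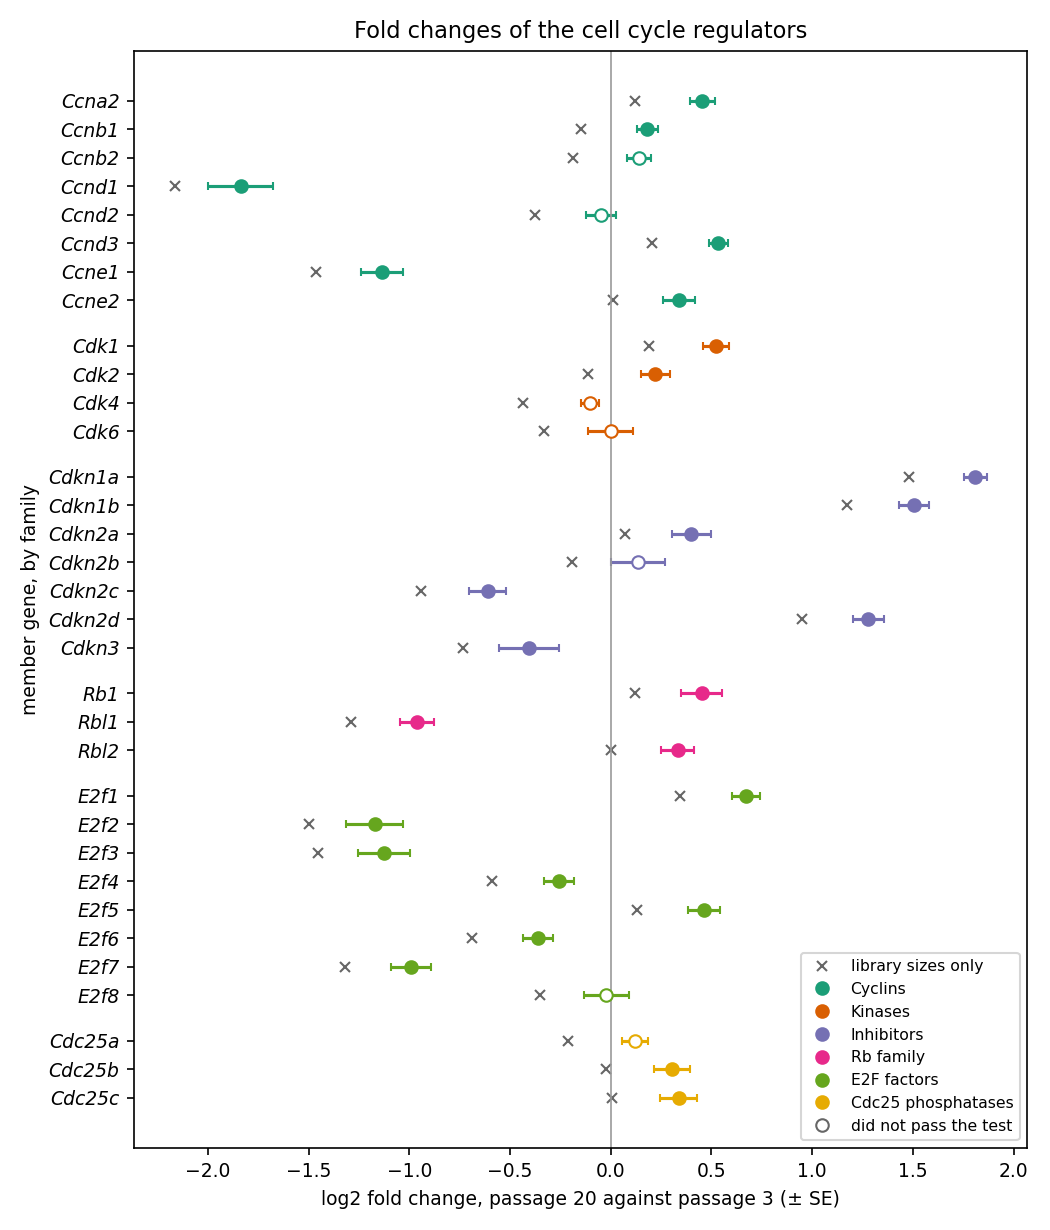
Log2 fold change of each of the 33 tested members (x axis, passage 20 against passage 3, ± SE) by family (y axis), with filled points past an adjusted p of 0.05, open points not past it, and crosses for the value with library sizes only. The crosses lie to the left of every point, and the rises of Cdkn1a, Cdkn1b and Cdkn2d and the falls of Ccnd1, Ccne1, E2f2 and E2f3 are the widest.

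The inhibitors held the largest rises. Cdkn1a (chromosome 17, 29090976 to 29100727, plus strand, GRCm38), which encodes p21, a CIP/KIP inhibitor and a target of p53, was at 220, 246 and 240 CPM in the passage 3 libraries and at 842, 788 and 846 CPM in those of passage 20. All passage 20 libraries lay far above all passage 3 libraries, a rise of 3.51-fold (log2 1.81, SE 0.0575, edgeR adjusted p = 8.64e-10). Cdkn1b (chromosome 6, 134920401 to 134925513, plus strand), which encodes p27, a CIP/KIP inhibitor linked to exit from the cycle, was at 95.9, 104 and 97.5 CPM and then at 305, 292 and 248 CPM. The groups did not overlap, and the rise was 2.84-fold (log2 1.51, SE 0.0763, edgeR adjusted p = 2.8e-08). Per kilobase of exon, Cdkn1a stood at 66.2 CPM at passage 3, second among the members after Cdk4, and at 232 CPM at passage 20, the highest level of all 34. Cdkn1b went from 21.8 to 61.8 CPM per kilobase.

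The 4 INK4 genes did not move together. Cdkn2d (chromosome 9, 21288410 to 21291407, minus strand), which encodes p19Ink4d, was at 18.1, 18.4 and 19.5 CPM at passage 3 and at 47.7, 46.4 and 42.2 CPM at passage 20. Its groups were well apart, and it rose 2.43-fold (log2 1.28, SE 0.0787, edgeR adjusted p = 8.58e-08). Cdkn2c, which encodes p18Ink4c, went the other way, from 20.1, 21.7 and 19.4 CPM to 13.4, 13.8 and 12.9 CPM, and fell 1.53-fold (edgeR adjusted p = 0.000105). Cdkn2a encodes both p16Ink4a and, from another first exon, the p53 activator p19Arf, and a count per gene does not separate them. It was at 15.7, 17.6 and 18.2 CPM and then at 24.0, 23.7 and 20.7 CPM, a 1.32-fold rise (edgeR adjusted p = 0.00302) that did not pass with library sizes only (log2 0.069, edgeR adjusted p = 0.508). Cdkn2b, its neighbour on chromosome 4, which encodes p15Ink4b, was at 37.2, 38.5 and 38.3 CPM at passage 3 and at 38.8, 33.8 and 51.9 CPM at passage 20. The groups overlapped and Cdkn2b did not pass (edgeR adjusted p = 0.386), and its log2 value of 0.13 turned to -0.08 without passage 20 replicate 3, which was the highest library. Per kilobase, the order at passage 3 was Cdkn2b (27.3 CPM), Cdkn2a (14.7), Cdkn2d (11.9) and Cdkn2c (7.60), and at passage 20 Cdkn2b and Cdkn2d were side by side at 29.9 and 28.9 CPM.

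Cdkn3, a phosphatase that acts on CDKs and is grouped here by its name, was the lowest of the inhibitor set at 6.37 to 7.76 CPM at passage 3 and 4.97 to 6.24 CPM at passage 20. Its 1.32-fold fall (edgeR adjusted p = 0.0289) did not pass with DESeq2 (adjusted p = 0.093) or when passage 3 replicate 1 or 2 or passage 20 replicate 2 was left out (edgeR adjusted p = 0.0789, 0.0897 and 0.0955). Among the 7 inhibitor genes, 4 rose, 2 fell and 1 did not pass, with a median log2 fold change of 0.40 beside -0.01 for all genes. The share called, 85.7%, was near the 74.3% of all genes, of which 37.0% were higher and 37.3% lower. With library sizes only, 3 rose and 2 fell, with a median of 0.069 beside -0.34 for all genes.

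**Figure D2:**
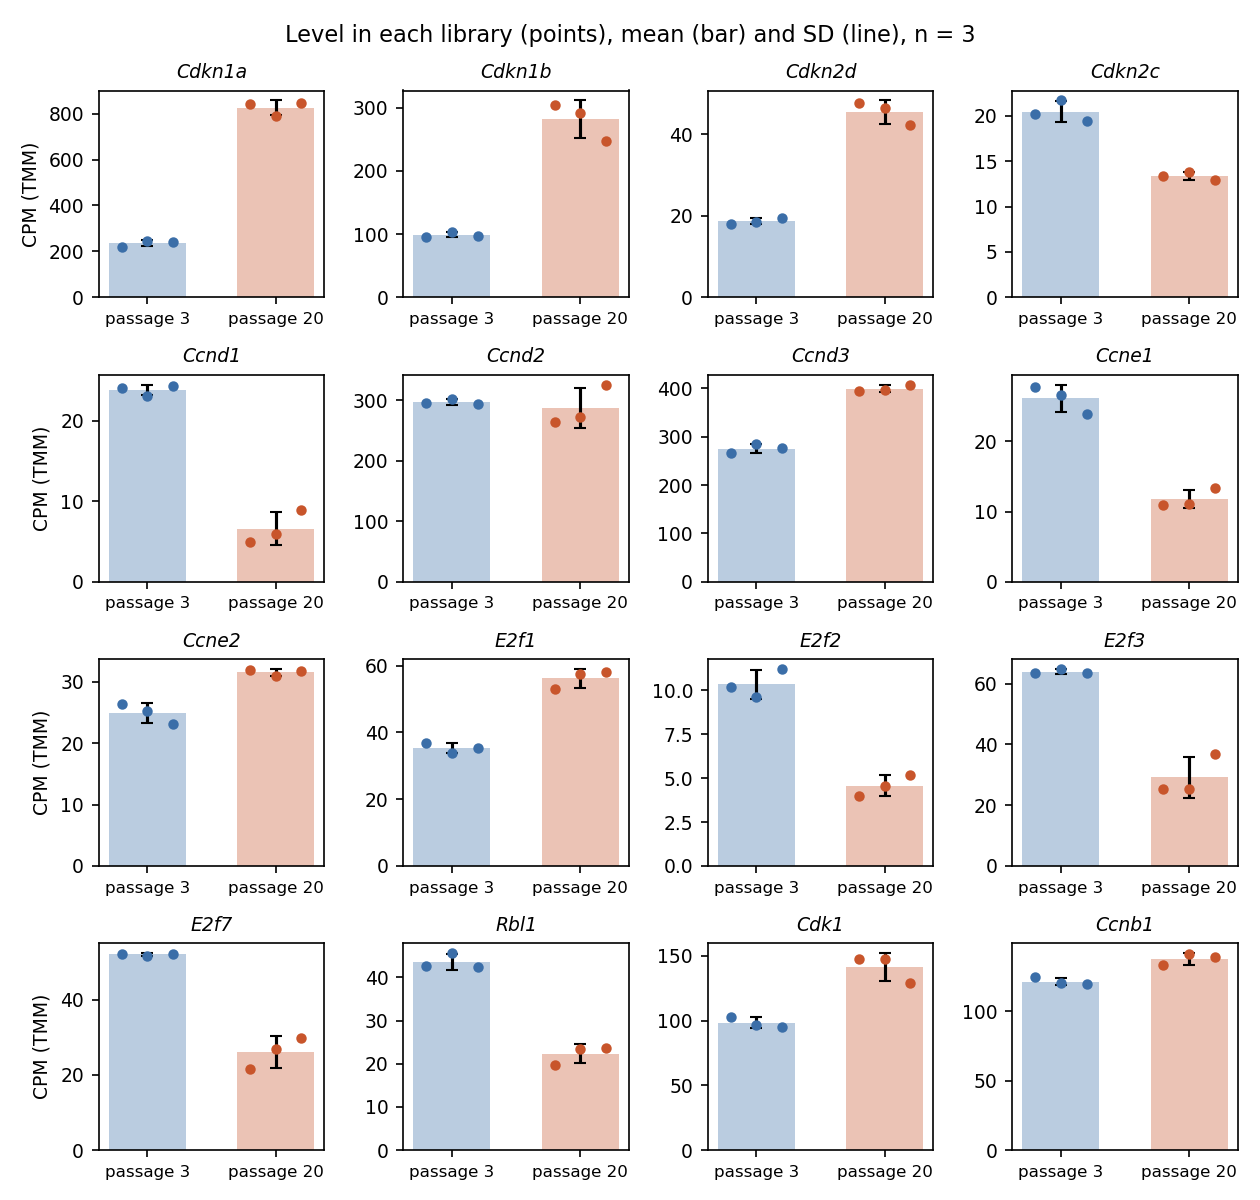
TMM-scaled CPM (y axis, from 0) of 16 members in each library (points) at passage 3 and passage 20 (x axis), with the mean as a bar and the SD as a line. The passages do not overlap in any panel except Ccnd2, where passage 20 replicate 3 lies above all passage 3 libraries at 326 CPM.

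The 3 D cyclins, which link growth factor signals to CDK4 and CDK6, each behaved differently. Ccnd1 (chromosome 7, 144929931 to 144939925, minus strand), the D cyclin best known as a target of mitogen signalling, was at 24.1, 23.1 and 24.3 CPM at passage 3 and at 4.95, 5.87 and 8.88 CPM at passage 20. Every passage 20 library was below every passage 3 library, a fall of 3.57-fold (log2 -1.84, SE 0.161, edgeR adjusted p = 2.12e-06), and the highest of the 3 was passage 20 replicate 3. About 23.4% of the exon bases of Ccnd1 overlap those of LTO1 on the opposite strand, and without a stated strand setting reads there cannot be told apart. Ccnd3 (chromosome 17, 47505051 to 47599691, plus strand) rose 1.45-fold, from 266, 285 and 276 CPM to 394, 396 and 408 CPM (log2 0.54, SE 0.0478, edgeR adjusted p = 1.71e-06). Ccnd2 was at 293 to 302 CPM and then at 264, 272 and 326 CPM, so its groups overlapped and it did not pass (edgeR adjusted p = 0.57). Without passage 20 replicate 3, Ccnd2 was called lower (log2 -0.16, edgeR adjusted p = 0.000494).

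Shares within a library do not depend on the scaling between libraries, so the makeup of the D cyclins was also compared as counts per kilobase. Ccnd2 and Ccnd3 took about equal shares at passage 3, 46.4 ± 0.523% and 46.2 ± 0.709%, with Ccnd1 at 7.45 ± 0.337%. At passage 20 Ccnd3 led with 58.9 ± 2.51%, Ccnd2 held 39.3 ± 2.07% and Ccnd1 1.78 ± 0.440%. The 2 sets of libraries did not overlap for any of the 3 shares, and an exact two-sided permutation test gave p = 0.1 for each, the smallest that 3 against 3 libraries allow.

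**Figure D3:**
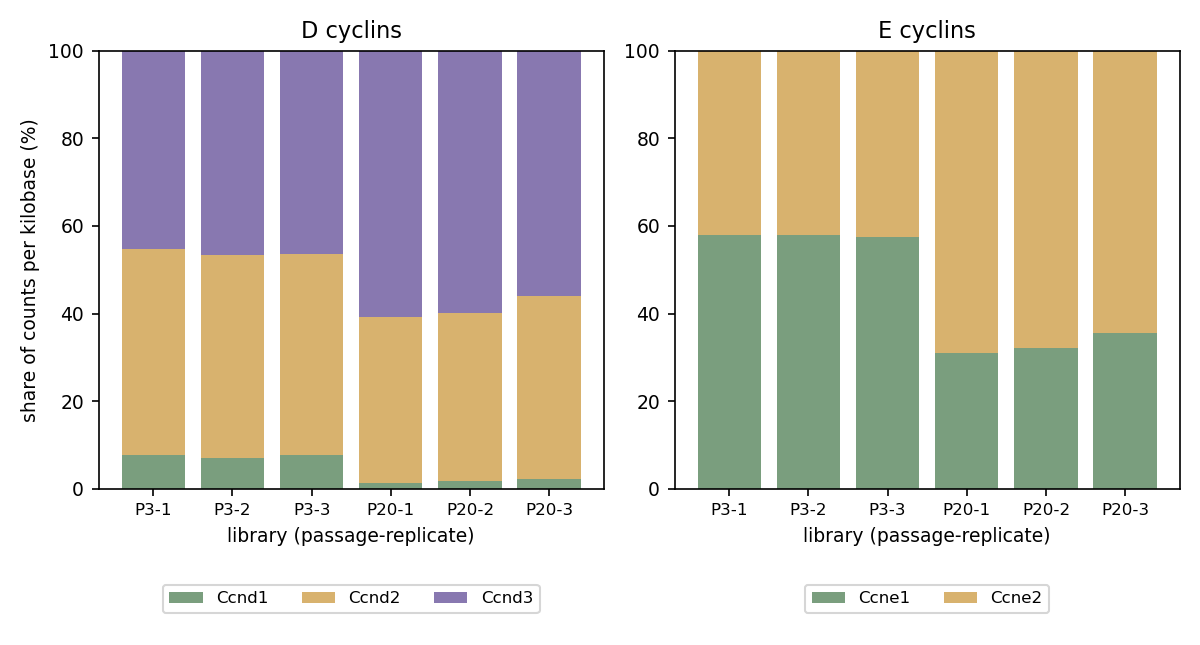
Share of each gene in the summed counts per kilobase (y axis, %) of the D cyclins (left) and E cyclins (right) in each of the 6 libraries (x axis, P3 or P20 for the passage, then the replicate). Ccnd3 takes 56.0 to 60.7% of the D cyclin bars at passage 20 and 45.4 to 46.7% at passage 3, and Ccne1 falls from about 58% of the E cyclin bars to 31.1 to 35.5%.

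Their partner kinases moved little. Cdk4 had the highest level per kilobase of all members at passage 3, 120 CPM, and stood at 112 CPM per kilobase at passage 20. In CPM its libraries were at 395, 393 and 381 and then at 354, 367 and 367, which do not overlap, but the difference of 1.07-fold did not pass (log2 -0.10, edgeR adjusted p = 0.0604). It passed as lower with DESeq2 (adjusted p = 0.0417), with upper-quartile factors (log2 -0.18), with library sizes only (log2 -0.43) and without passage 20 replicate 3 (log2 -0.13). Cdk6 was at 35.4 to 42.3 CPM and 33.5 to 44.3 CPM, overlapping fully, with an adjusted p of 0.996 by edgeR. Per kilobase it was at 2.71 and 2.70 CPM and made up 2.21 ± 0.193% and 2.36 ± 0.323% of the Cdk4 and Cdk6 sum (exact permutation p = 0.5).

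The E cyclins, which pair with CDK2 at the start of S phase, went opposite ways. Ccne1 (chromosome 7, 38097984 to 38107534, minus strand) was at 27.8, 26.6 and 24.0 CPM at passage 3 and at 11.0, 11.1 and 13.3 CPM at passage 20, 2.20-fold lower (log2 -1.14, SE 0.106, edgeR adjusted p = 2.44e-06). Ccne2 (chromosome 4, 11191351 to 11204779, plus strand) was at 26.5, 25.3 and 23.2 CPM and then at 32.0, 30.9 and 31.8 CPM, 1.27-fold higher (edgeR adjusted p = 0.0022). Neither gene's groups overlapped, but the rise of Ccne2 did not pass with library sizes only (log2 0.0097), and it shares 17.4% of its exon bases with Ints8 on the opposite strand. As shares per kilobase, which need no scaling, Ccne1 went from 57.9 ± 0.263% to 32.9 ± 2.29% of the pair, and the leading E cyclin changed from Ccne1 to Ccne2 in all 3 passage 20 libraries (exact permutation p = 0.1, the smallest allowed).

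Pocket proteins also divided. Rbl1 (chromosome 2, 157145893 to 157204534, minus strand), which encodes p107, was at 42.6, 45.6 and 42.5 CPM at passage 3 and at 19.8, 23.5 and 23.8 CPM at passage 20. It fell 1.95-fold with no overlap (log2 -0.96, SE 0.0847, edgeR adjusted p = 1.56e-06). Rb1 rose 1.37-fold, from 17.3, 17.0 and 15.0 CPM to 20.3, 24.5 and 22.4 CPM (edgeR adjusted p = 0.00177), and Rbl2, which encodes p130, the pocket protein of resting cells, rose 1.26-fold, from 24.7, 25.5 and 26.6 CPM to 34.2, 33.3 and 29.5 CPM (edgeR adjusted p = 0.00333). Both rises kept their direction but did not pass with library sizes only (log2 0.12 and 0.0017), and both genes overlap others on the opposite strand. Rbl1 had the highest level per kilobase of the 3 at passage 3 (7.27 CPM, against 3.39 for Rbl2 and 2.73 for Rb1), and at passage 20 the 3 genes lay at 3.73, 4.28 and 3.72 CPM per kilobase in the same order.

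Among the E2F factors, 5 of 8 fell (62.5%, against 37.3% of all genes), 2 rose (25.0%, against 37.0%) and 1 did not pass. Their median log2 fold change was -0.31 beside -0.01 for all genes, and the share called in either direction, 87.5%, was near the 74.3% of all genes. The activators E2f1, E2f2 and E2f3 split. E2f1 (chromosome 2, 154559407 to 154569892, minus strand) was at 36.7, 33.8 and 35.3 CPM at passage 3 and at 53.0, 57.4 and 58.2 CPM at passage 20, 1.59-fold higher (log2 0.67, SE 0.0692, edgeR adjusted p = 5.49e-06). E2f3 (chromosome 13, 29906575 to 29986063, minus strand) was at 63.6, 64.9 and 63.5 CPM and then at 25.2, 25.4 and 36.8 CPM, 2.18-fold lower (log2 -1.12, SE 0.128, edgeR adjusted p = 3.21e-05). E2f2, the least abundant per kilobase of the 8 (2.12 and 0.936 CPM), fell 2.25-fold, from 10.2, 9.61 and 11.2 CPM to 3.96, 4.57 and 5.18 CPM (edgeR adjusted p = 1.88e-05). No passage 20 library overlapped the passage 3 libraries in any of these 3 genes. Per kilobase, E2f1 and E2f3 were close at passage 3 (11.2 and 11.8 CPM) and apart at passage 20 (17.8 and 5.37 CPM).

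The other E2F factors mostly repress. E2f4, which acts with the pocket proteins in resting cells, was the most abundant per kilobase at passage 3 (24.0 CPM) and fell 1.20-fold, from 55.4 to 62.0 CPM to 44.9 to 52.3 CPM (edgeR adjusted p = 0.00913). Its closest relative E2f5 rose 1.38-fold, from 30.4 to 31.8 CPM to 39.6 to 47.1 CPM (edgeR adjusted p = 0.000262), a rise that did not pass with library sizes only (log2 0.13). E2f6, a repressor that works without pocket proteins, fell 1.28-fold, from 75.6 to 84.7 CPM to 59.0 to 68.9 CPM (edgeR adjusted p = 0.00111). The atypical repressors E2f7 and E2f8 differed from each other. E2f7 (chromosome 10, 110745439 to 110787384, plus strand) was at 52.2, 51.6 and 52.3 CPM and then at 21.5, 26.9 and 29.8 CPM, 1.99-fold lower (log2 -0.99, SE 0.1003, edgeR adjusted p = 4.9e-06). E2f8 was at 16.7, 16.8 and 19.1 CPM and at 15.3, 16.4 and 19.9 CPM, with overlapping groups (edgeR adjusted p = 0.873).

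**Figure D4:**
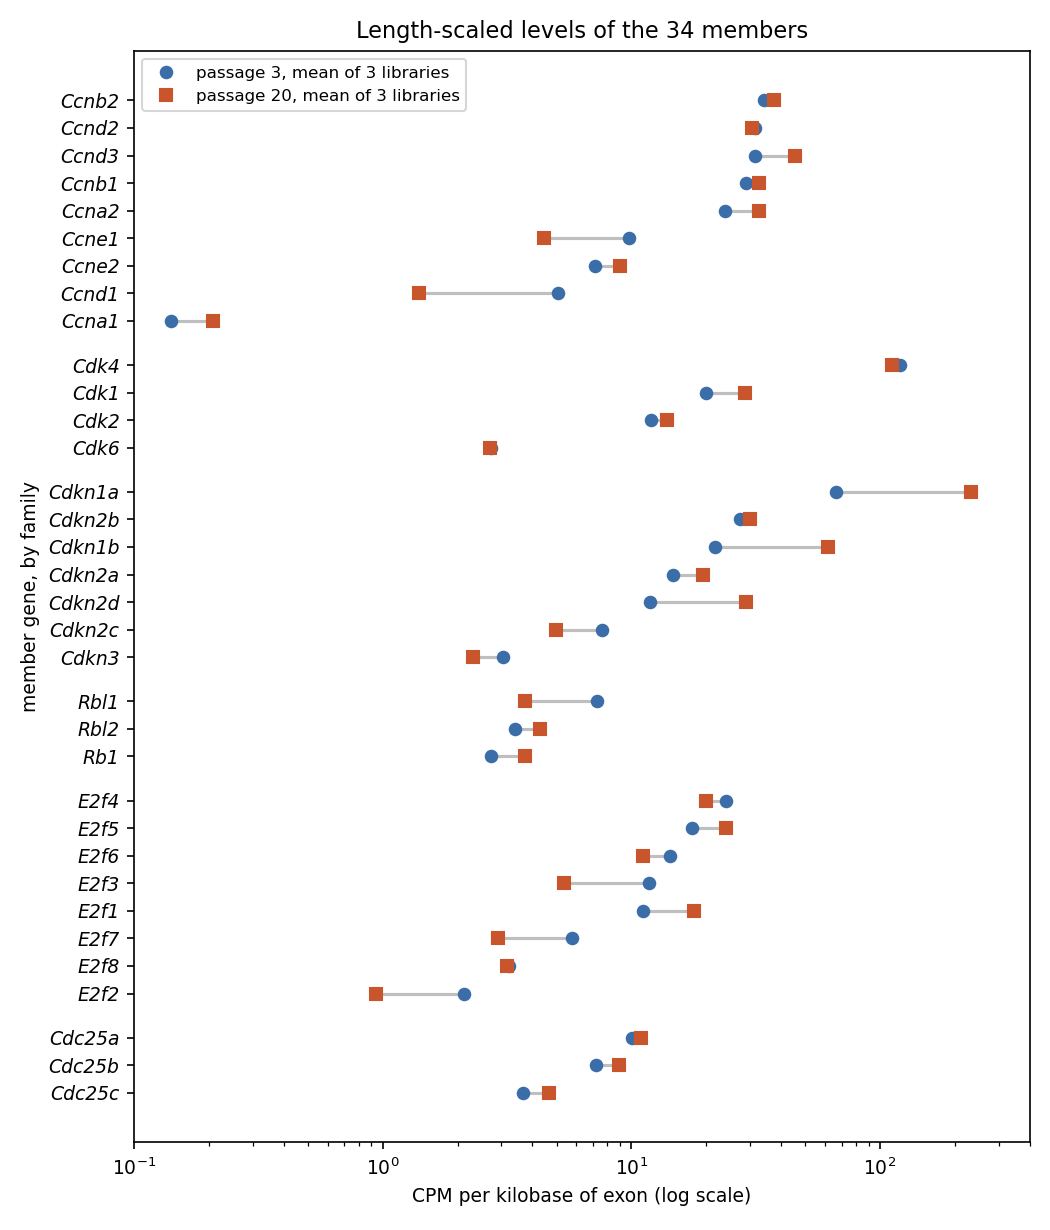
Mean TMM-scaled CPM per kilobase of exon (x axis, log scale) of all 34 members (y axis, by family) at passage 3 (circles) and passage 20 (squares). Cdk4 leads at passage 3 with 120 and Cdkn1a at passage 20 with 232, and Ccna1 lies lowest at 0.141 and 0.207.

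Rbl1, E2f2, E2f3 and E2f7, a set chosen after their values were seen, fell by 0.96 to 1.17 on the log2 scale, and E2F genes and Rbl1 are known to carry E2F sites of their own. Their promoters are therefore shown, as RefSeq windows from 250 bases before to 50 after an annotated start on GRCm38.p6, each read 5′ to 3′ on the gene's strand. Such windows were found for 26 of the 34 members (32 windows). None was found for Ccna2, Ccnd1, Ccnd2, Ccne2, Rb1, E2f4, E2f5 or Cdc25c, which are left out of the motif counts below. Capitals mark, on either strand, an E2F site (TTTCCCGC, TTTCGCGC, TTTGCCGC or TTTGGCGC, with the reverse complements GCGGGAAA, GCGCGAAA, GCGGCAAA and GCGCCAAA), a cell cycle homology region or CHR (TTTGAA or TTCAAA), the element bound by the repressive DREAM complex and its activating counterpart, or a CCAAT box (CCAAT or ATTGG), bound by NF-Y. No matches of these motifs overlapped in the members' windows.
Rbl1, chr2:157204485-157204784, minus strand: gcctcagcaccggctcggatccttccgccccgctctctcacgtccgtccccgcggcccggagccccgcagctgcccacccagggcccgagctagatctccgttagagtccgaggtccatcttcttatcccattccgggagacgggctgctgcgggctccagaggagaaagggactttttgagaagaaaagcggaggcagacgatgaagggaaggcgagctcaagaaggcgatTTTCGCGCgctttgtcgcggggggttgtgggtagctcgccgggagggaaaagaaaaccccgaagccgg
E2f2, chr4:136172024-136172323, plus strand: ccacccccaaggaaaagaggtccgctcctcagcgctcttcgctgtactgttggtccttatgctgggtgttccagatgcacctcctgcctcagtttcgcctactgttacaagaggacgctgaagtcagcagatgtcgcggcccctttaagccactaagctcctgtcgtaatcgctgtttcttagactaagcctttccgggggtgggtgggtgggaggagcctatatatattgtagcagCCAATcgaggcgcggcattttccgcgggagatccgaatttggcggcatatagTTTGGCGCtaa
E2f3, chr13:29986014-29986313, minus strand: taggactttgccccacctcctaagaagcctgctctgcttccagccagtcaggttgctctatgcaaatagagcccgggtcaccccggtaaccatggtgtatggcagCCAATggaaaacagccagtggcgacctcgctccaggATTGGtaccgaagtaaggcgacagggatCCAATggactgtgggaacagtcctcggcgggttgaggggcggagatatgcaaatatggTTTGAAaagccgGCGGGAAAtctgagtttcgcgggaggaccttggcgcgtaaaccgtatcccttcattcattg
E2f7, chr10:110745189-110745488, plus strand: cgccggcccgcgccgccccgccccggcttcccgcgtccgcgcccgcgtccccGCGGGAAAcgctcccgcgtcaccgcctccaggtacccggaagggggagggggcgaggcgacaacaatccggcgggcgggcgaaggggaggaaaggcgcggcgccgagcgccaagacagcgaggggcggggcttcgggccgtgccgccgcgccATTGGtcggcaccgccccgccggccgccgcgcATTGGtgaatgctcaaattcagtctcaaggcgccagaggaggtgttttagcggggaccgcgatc

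Counted with the start base as 0, the E2F match of Rbl1 (TTTCGCGC) spans -18 to -11, that of E2f3 (GCGGGAAA) -11 to -4, that of E2f2 (TTTGGCGC) 39 to 46 and that of E2f7 (GCGGGAAA) -198 to -191. E2f2 and E2f3 each have a second window, not shown, that holds no E2F match. The windows of E2f1, E2f6 and E2f8, also not shown, held none either, and that of E2f1 lies wholly inside the annotated gene. Ccne1, which fell as much as the set shown (log2 -1.14), had a window without an E2F match. The search took exact letters only, so a window without a match can still hold an E2F site. Of the 26 matched members 8 held an E2F match (30.8%), where 2.605% of all 27025 genes with a window did. The 8 were Rbl1, E2f2, E2f3, E2f7, Cdk1, Cdk2, Cdkn2a and Cdc25a, of which 4 fell, 3 rose and 1 did not pass, so a match went with no single direction. The match of Cdkn2a lay in its window at chr4:89294570-89294869, and its other window, at another start, held none.

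Of the A and B cyclins and Cdk1, which act from S phase to mitosis, Cdk1, Ccna2 and Ccnb1 were called higher, Ccnb2 did not pass, and with library sizes only both B cyclins were called lower. Cdk1 (chromosome 10, 69335146 to 69352938, minus strand), the kinase that drives entry into mitosis, was at 103, 96.7 and 95.0 CPM at passage 3 and at 148, 147 and 129 CPM at passage 20, 1.44-fold higher (log2 0.52, SE 0.0660, edgeR adjusted p = 2.79e-05). Ccna2, the A cyclin of S and G2 phase, rose 1.37-fold, from 101, 94.5 and 96.0 CPM to 127, 144 and 128 CPM (edgeR adjusted p = 5.5e-05). Its groups did not overlap, but it did not pass with library sizes only (log2 0.12). Ccnb1, a B cyclin and partner of Cdk1, was 1.13-fold higher at 133 to 141 CPM against 119 to 124 CPM (edgeR adjusted p = 0.00693). That call did not pass with upper-quartile factors (log2 0.11) or no low-count filter (log2 0.15) and turned with library sizes only (log2 -0.15, edgeR adjusted p = 0.028). Ccnb2 was at 50.9 to 53.5 CPM and 56.5 to 58.3 CPM, without overlap, and did not pass (edgeR adjusted p = 0.0516). It passed as higher with the filter of at least 1 CPM in 3 libraries (log2 0.14, edgeR adjusted p = 0.047) and as lower with library sizes only (log2 -0.19). Ccna1, an A cyclin of the germline, had 14 counts in all at passage 3 and 12 at passage 20 and was not tested.

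Cdk1 and Ccnb2 are shown for comparison, with the same marks, because the mitotic genes are known for CHR and CCAAT elements.
Cdk1, chr10:69352863-69353162, minus strand: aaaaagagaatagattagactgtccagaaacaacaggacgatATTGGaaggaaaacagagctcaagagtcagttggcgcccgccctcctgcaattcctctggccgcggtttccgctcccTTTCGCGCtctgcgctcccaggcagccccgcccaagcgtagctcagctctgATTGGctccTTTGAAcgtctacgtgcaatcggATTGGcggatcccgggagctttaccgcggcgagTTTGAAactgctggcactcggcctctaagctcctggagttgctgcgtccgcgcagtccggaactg
Ccnb2, chr9:70421505-70421804, minus strand: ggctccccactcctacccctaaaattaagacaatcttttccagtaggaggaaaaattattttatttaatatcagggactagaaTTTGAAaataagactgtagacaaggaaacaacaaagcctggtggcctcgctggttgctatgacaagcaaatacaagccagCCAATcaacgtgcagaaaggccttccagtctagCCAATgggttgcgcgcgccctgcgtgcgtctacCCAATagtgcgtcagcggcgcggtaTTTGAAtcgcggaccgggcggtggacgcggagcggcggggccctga

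The window of Cdk1 held an E2F match at -131 to -124, CHR matches at -71 to -66 and -15 to -10, and 3 CCAAT boxes. In Ccnb2 there were CHR matches at -167 to -162 and 4 to 9, and CCAAT boxes starting at -87, -54 and -21. The windows of Ccnb1 and Cdc25b, not shown, held CCAAT boxes but neither TTTGAA nor TTCAAA. No other CHR letters were searched, so these windows cannot be said to lack the element. Of the 26 matched members, 8 held a CHR match (30.8%) and 17 a CCAAT box, where 20.2% and 41.1% of all 27025 genes with a window did. Counted by window, 17.9% of all 32851 windows held a CHR match and 37.4% a CCAAT box.

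Cdk2, the partner of E and A cyclins, rose 1.17-fold, from 78.1, 72.5 and 72.5 CPM to 88.4, 93.8 and 78.3 CPM (edgeR adjusted p = 0.017). This rise did not pass with upper-quartile factors (log2 0.14) or when passage 3 replicate 2 or 3 or passage 20 replicate 2 was left out (edgeR adjusted p = 0.0818, 0.0805 and 0.0804), and it turned with library sizes only (log2 -0.11). The Cdc25 phosphatases activate these pairs, Cdc25a mainly in S phase and Cdc25b and Cdc25c at mitosis. Cdc25b was at 25.1 to 29.7 CPM and 31.5 to 35.9 CPM (1.24-fold, edgeR adjusted p = 0.00985) and Cdc25c at 17.4 to 19.2 CPM and 20.8 to 24.3 CPM (1.26-fold, edgeR adjusted p = 0.00607). Both were called higher without overlap. With library sizes only neither passed, with log2 values of -0.024 and 0.0074, and Cdc25b did not pass without passage 3 replicate 1 or 2 (edgeR adjusted p = 0.0536 and 0.0629). Cdc25a, at 78.9 to 81.9 CPM and 83.4 to 94.8 CPM, did not pass (edgeR adjusted p = 0.104). It passed as higher without passage 20 replicate 3 (log2 0.13, edgeR adjusted p = 0.0313) and as lower with library sizes only (log2 -0.21).

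Other genes of the cycle were read from lists that did not hold the members. Of 24 genes expressed in G2 and mitosis, 17 rose (70.8%, against 37.0% of all genes), 1 fell (4.17%, against 37.3%) and 6 did not pass, with a median log2 fold change of 0.39 beside -0.01 for all genes. The share called in either direction, 75.0%, was near the 74.3% of all genes. The mitotic kinase gene Aurkb rose from 51.6 ± 1.06 to 86.4 ± 5.44 CPM (edgeR adjusted p = 1.41e-06) and its complex partner Cdca8 from 59.3 ± 1.84 to 96.8 ± 5.77 CPM (edgeR adjusted p = 1.84e-06). The 1 gene that fell was the mitotic kinesin gene Kif11, from 96.8 ± 3.72 to 77.8 ± 3.70 CPM (edgeR adjusted p = 0.000652). With library sizes only the list held 9 higher and 8 lower, with a median of 0.056 beside -0.34 for all genes. Mki67, the usual proliferation marker, was at 400 ± 23.4 and 430 ± 55.2 CPM and did not pass (edgeR adjusted p = 0.31).

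Of 24 genes of DNA synthesis that E2F factors are known to drive, 10 rose (41.7%), 7 fell (29.2%) and 7 did not pass, with a median of 0.068. These shares were near those of all genes, 37.0% higher and 37.3% lower. Cdt1, which licenses replication origins, rose from 40.8 ± 2.10 to 85.2 ± 6.66 CPM (2.09-fold, edgeR adjusted p = 2.39e-07), and Msh6, a mismatch repair gene, from 92.3 ± 3.22 to 158 ± 6.21 CPM (edgeR adjusted p = 2.41e-07). Lower were Tyms, thymidylate synthase, from 51.5 ± 1.35 to 30.3 ± 2.41 CPM (edgeR adjusted p = 3.63e-06), and Rrm2, a ribonucleotide reductase subunit, from 112 ± 4.64 to 77.4 ± 2.99 CPM (edgeR adjusted p = 9.62e-06). All 4 kept their call in the 14 settings. The median became -0.26 when libraries were scaled by totals, with 3 genes higher and 15 lower, where that of all genes was -0.34. With upper-quartile factors it was -0.0091, beside -0.088 for all genes.

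Among 27 further regulators of the cycle, 12 rose (44.4%), 9 fell (33.3%) and 6 did not pass, near the 37.0% and 37.3% of all genes. Their median was 0.12, or -0.21 when libraries were scaled by totals, where that of all genes was -0.34. The unconventional cyclin Ccng2, known as a FOXO target, rose from 49.6 ± 3.78 to 269 ± 37.7 CPM (5.43-fold, edgeR adjusted p = 5.63e-08) and the p53 target Ccng1 from 262 ± 12.2 to 475 ± 13.4 CPM (edgeR adjusted p = 6.93e-08). Fbxw7, which marks cyclin E for destruction, fell from 30.8 ± 1.21 to 14.4 ± 1.96 CPM (edgeR adjusted p = 2.39e-06). Cdkn1c, the third CIP/KIP inhibitor and an imprinted gene, fell from 343 ± 15.0 to 233 ± 13.9 CPM (edgeR adjusted p = 5.16e-06), against the direction of Cdkn1a and Cdkn1b.

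Of 19 genes known to act upstream of the inhibitors and D cyclins, 10 rose (52.6%, against 37.0% of all genes), 6 fell (31.6%, against 37.3%) and 3 did not pass, with a median of 0.48. The share called in either direction was 84.2%, against 74.3% of all genes. Foxo3, a transcription factor that activates Cdkn1b, rose from 109 ± 11.0 to 574 ± 4.68 CPM (5.25-fold, edgeR adjusted p = 4.97e-10), and Ets2 from 89.5 ± 5.40 to 386 ± 43.1 CPM (edgeR adjusted p = 6.87e-09). Tbx3, a repressor of the Cdkn2a locus, fell from 203 ± 2.33 to 70.1 ± 10.9 CPM (edgeR adjusted p = 2.12e-07), and Bmi1, a Polycomb protein that holds that locus silent, from 57.9 ± 2.49 to 34.3 ± 1.26 CPM (edgeR adjusted p = 1.77e-06). These 4 genes, and the 4 of the preceding list, kept their call in all 14 settings. Their relatives in the list did not all go with them. Tbx2 fell 3.48-fold (edgeR adjusted p = 2.61e-05), as Tbx3 did, and Ets1 rose 2.62-fold (edgeR adjusted p = 1.48e-08), as Ets2 did. Cbx7, however, rose 3.83-fold (edgeR adjusted p = 4.93e-06). Foxo1 fell 1.23-fold (edgeR adjusted p = 0.00143), and Ezh2 and Cbx8 did not pass. With library sizes only, 8 of the 19 rose and 8 fell, with a median of 0.14 beside -0.34 for all genes.

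**Figure D5:**
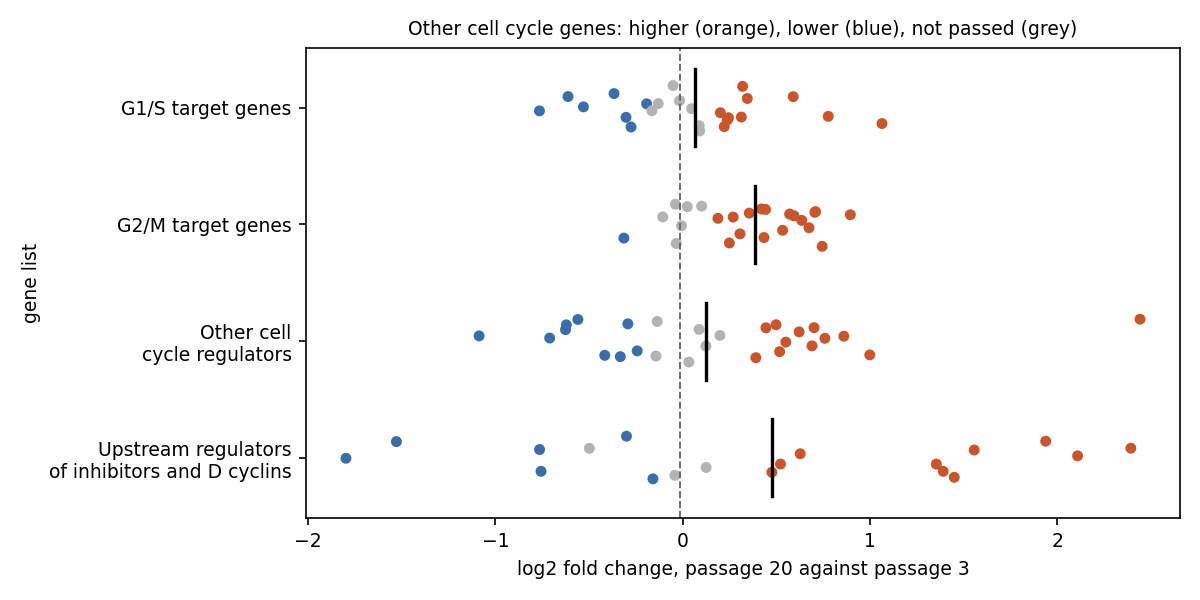
Log2 fold change (x axis) of each tested gene of the 4 other lists (y axis), coloured by its call, with the list's median as a black bar and the median of all genes as a dashed line. The G2/M list lies mostly to the right of the dashed line, with 17 genes higher, whereas the G1/S list spreads to both sides of it.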

How the data were processed

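RNA sequencing counts of 3 passage 3 and 3 passage 20 samples were analysed. Per the labels' protocols, 10 µg of column-purified, DNase-treated total RNA went into library preparation by Illumina's usual method. Tools named in the submitters' processing notes are HTSeq, DESeq2, SAMtools and HISAT2 2.0.5, and the build is GRCm38; what each did, the annotation used and whether counting used strand: not given in the sources used here. Raw counts per Ensembl gene were deposited for every sample; deposited log2-scale values of an unstated transformation were not used. If the counting ignored strand, reads over overlapping genes could be dropped or shared.

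GENCODE M21 (GRCm38) supplied symbols, positions and exon lengths for 53706 of 53801 genes. Low-count genes were removed with filterByExpr, leaving 15143. Passage 20 was compared with passage 3 by edgeR 4.0.16 (TMM factors of 0.873 to 1.13, robust quasi-likelihood test, R 4.3.3), with p-values adjusted over all genes tested by the Benjamini-Hochberg method at 0.05. SE is the log2 fold change divided by the square root of F. CPM per kilobase divides by the union of annotated exons. Shares were compared by an exact two-sided permutation test over libraries. The test was run on simulated counts in which far fewer genes changed than were called here, so that run does not bear on the scaling. Intervals of counting error are not given; depth limits precision most for Ccna1, Cdkn3 and E2f2.

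The alternatives were DESeq2 1.42.0, RLE or upper-quartile factors, library sizes only, omission of the filter, a filter of 1 CPM in at least 3 libraries, a replicate block and each library left out. The members and gene lists were chosen with earlier results of these data known. Every member is named, with the 2 genes of smallest adjusted p per direction from each other list. Mki67, Tbx2, Ets1, Cbx7, Cbx8, Ezh2, Foxo1 and the named fibroblast markers were added after their values were seen.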

Additional observations from a re-analysis of the deposited data

How the results depend on the processing

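Counts of members stayed within 1.5 times of 16 higher and 10 lower in 12 of the 13 alternatives, and with each library left out they were 14 to 17 higher and 9 to 12 lower. The exception was library sizes only, with 6 members higher and 17 lower, and 3528 genes higher (from 5604) over all genes. There, 6 members changed sign: Ccnb1 (-0.15), Ccnb2 (-0.19), Cdk2 (-0.11), Cdkn2b (-0.19), Cdc25a (-0.21) and Cdc25b (-0.024), as log2 values. The share of calls that were higher was 49.8% with TMM factors, 44.9% with upper-quartile factors and 29.9% with library sizes only. Members that did not pass turned around 0: Cdk6 was at 0.00023 with RLE factors and 0.0015 with at least 1 CPM in 3 libraries. With single libraries left out, Cdk6 ranged from -0.15 to 0.080, E2f8 from -0.16 to 0.055, Ccnd2 from -0.16 to 0.0097 and Cdkn2b from -0.081 to 0.26. The difference in the Cdk4 share of the Cdk4 and Cdk6 sum ranged from -0.26 to 0.039 percentage points, and that of Cdk6 from -0.039 to 0.26. Other shares kept their direction under all 7 alternatives run for them. The cause of these changes was not tested. The replicate numbers gave no sign of pairing. Deviations of same-numbered libraries from their group means had correlations of 0.014, -0.027 and 0.045, and not every sample correlated best with its own number. With 3 libraries per passage, this check cannot settle whether the samples were paired. With the replicate block, 16 members were higher and 10 lower, and over all genes 5521 were higher and 5582 lower.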

Other observations

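Passage 20 replicate 3 was the passage 20 library nearest to the passage 3 mean, on log2(CPM + 1), in 15 of the 26 called members (57.7%) and in 6282 of all 11245 called genes (55.9%). It was nearest in 7 of the 10 members that fell and in 8 of the 16 that rose. Values of the members without that library stand beside each call that it changed.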
